A study of Mus musculus with 27 samples.

Results

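The oligodendrocyte lineage genes are 33 genes of the oligodendrocyte and its precursor cell, picked by name for their roles with earlier results of these data known. They were looked up in the deposited count table, which holds 54532 genes. All 33 were found, 1 row each. They fall into 7 transcription factors, 14 genes of precursor cells, 4 genes of committed precursors and 8 myelin genes. The study asked how bryostatin, a natural product that activates protein kinase C, changes RNA in inflamed and in resting mixed glia. These cultures hold astrocytes, microglia and oligodendrocyte precursors together, and were grown from the cortex of P3-P6 C57BL6 mice for 14 days.

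Every treatment lasted 24 h. Experiment 1 had untreated cultures, LPS at 100 ng/mL, LPS with 50 nM bryostatin, LPS with 20 ng/mL IFN-gamma, and LPS with IFN-gamma and bryostatin at those same doses. Experiment 2 had its own untreated cultures, 50 nM bryostatin alone, IL-4 at 20 ng/mL, and IL-4 with bryostatin. Each of the 9 groups had 3 RNA libraries, 27 in all. The labels do not say whether the libraries of a group came from separate cultures, so each p-value rests on library-to-library spread that could be purely technical. No line was engineered and no cells were sorted. In these bulk samples, fewer cells of the lineage, less RNA per cell and changed RNA from other cells cannot be told apart.

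Oligodendrocytes wrap axons in myelin and arise from dividing precursors that carry the PDGF receptor alpha and the NG2 proteoglycan. Olig2 and Sox10 set the lineage, Nkx2-2 and Myrf carry cells towards myelination, and Gpr17, Bcas1, Enpp6 and Ugt8a mark cells that have left the precursor state. Several members, among them Olig1, Olig2, Sox8, Sox6, Ptprz1, Tns3 and Vcan, are also transcribed by astrocytes or other neural cells, whereas Sox10, Gpr17 and the myelin proteins are closer to lineage-specific in the brain.

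RefSeq promoter sequence (GRCm38.p6) was found for 24 of the 33 members. The 250 bases before the start are printed for 4 of them, which moved in different ways with bryostatin added to LPS and IFN-gamma. In the fit without 2 untreated libraries, described below, Lhfpl3, Ugt8a and Cldn11 were called lower and Pdgfra higher. As labelled, none of the 4 was called for bryostatin, and Pdgfra was called in neither fit for bryostatin added to LPS alone. Each sequence runs 5′ to 3′ on the gene's own strand. Capitals mark matches to CAGCTG, an E-box of the kind bound by OLIG and other bHLH factors. The windows are chr5:22745804-22746053 on the plus strand for Lhfpl3, chr3:125938653-125938902 on the minus strand for Ugt8a, chr3:31149670-31149919 on the plus strand for Cldn11 and chr5:75152001-75152250 on the plus strand for Pdgfra.
Lhfpl3: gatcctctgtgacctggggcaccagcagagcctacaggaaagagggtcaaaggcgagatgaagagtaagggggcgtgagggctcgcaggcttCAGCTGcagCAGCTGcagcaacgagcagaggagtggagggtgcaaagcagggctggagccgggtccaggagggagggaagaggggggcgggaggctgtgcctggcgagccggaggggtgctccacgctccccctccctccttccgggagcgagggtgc
Ugt8a: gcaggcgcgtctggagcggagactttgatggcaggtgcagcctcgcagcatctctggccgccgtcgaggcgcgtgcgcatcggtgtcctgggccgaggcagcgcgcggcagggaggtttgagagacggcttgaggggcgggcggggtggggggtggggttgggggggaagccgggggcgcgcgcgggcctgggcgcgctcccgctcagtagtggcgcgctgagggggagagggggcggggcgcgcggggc
Cldn11: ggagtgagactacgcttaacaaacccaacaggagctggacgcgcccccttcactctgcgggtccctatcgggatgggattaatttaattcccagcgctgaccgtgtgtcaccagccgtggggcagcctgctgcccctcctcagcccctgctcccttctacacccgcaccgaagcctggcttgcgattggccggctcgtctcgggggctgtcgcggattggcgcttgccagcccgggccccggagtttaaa
Pdgfra: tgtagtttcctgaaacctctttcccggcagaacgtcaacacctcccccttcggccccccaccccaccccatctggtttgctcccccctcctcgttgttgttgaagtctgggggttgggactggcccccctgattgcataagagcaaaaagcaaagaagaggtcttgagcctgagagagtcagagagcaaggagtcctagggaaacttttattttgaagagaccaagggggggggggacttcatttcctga
The Lhfpl3 window held CAGCTG 2 times and the other windows held none of the motifs searched. Searched on both strands, CAGCTG was in 3 of the 24 members' windows (Sox6, Lhfpl3 and Dll3) and in 13% of all 32851 promoters. The SOX-type words AACAAT and ACAAAG were in 5 and 4 members, against 9.42% and 16.5% of all promoters, and the AP-1 word TGANTCA was in 0 of 24, against 6.75%. The E-box and SOX-type words cannot overlap one another, and the AP-1 word had no match among the members. G and C made up 67.2% of the Lhfpl3 window, 76.8% of Ugt8a, 63.6% of Cldn11 and 54.4% of Pdgfra. Members were counted once over any of their windows (Sox6 has several) and the shares are per promoter, so the 2 are in unlike units. A match is a run of letters and not a measured site.

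Total counts per library ran from 17230058 to 28687281, and 3 counts correspond to 0.105 to 0.174 CPM of these totals. CPM is the count as a share of the library's total, and the levels below also carry TMM factors over the 27 libraries, which shift that floor somewhat. Fold changes are log2 values with their standard error from edgeR's quasi-likelihood test within an experiment, and a gene is called at a Benjamini-Hochberg adjusted p under 0.05 over all genes tested. In experiment 1, 30 members passed the filter on low counts, and Neu4, Mog and Mobp did not. In experiment 2, 25 passed, and Sox10, Gpr17, Bcas1, Enpp6 and Ugt8a dropped out as well.

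The 2 untreated libraries labelled replicate 1 stood apart before any treatment was compared. Sox10, the transcription factor that defines the lineage, read 0.165, 35.2 and 31.7 CPM in untreated replicates 1, 2 and 3 of experiment 1, and 36.7, 0.272 and 0.222 CPM in those of experiment 2. The library labelled replicate 1 thus lay with the other experiment in both cases. Of 29 members with at least 1 CPM, 10 were at least 4-fold and another 3 at least 2-fold higher in replicates 2 and 3 of experiment 1 than in replicates 2 and 3 of experiment 2, and 16 were within 2-fold. Among those 13, replicate 1 of experiment 1 was nearer to experiment 2 for 13, and replicate 1 of experiment 2 was nearer to experiment 1 for 12. The labels were kept as given, and the counts of called members are given as labelled and again without both libraries, as are the values of many single genes.

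These libraries also touch comparisons in which they take no side, since all groups of an experiment share 1 estimate of each gene's spread. Sox10 has a standard error of 0.74 for bryostatin added to LPS as labelled and of 0.12 without the 2 libraries, at the same log2 fold change.

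**Figure D1:**
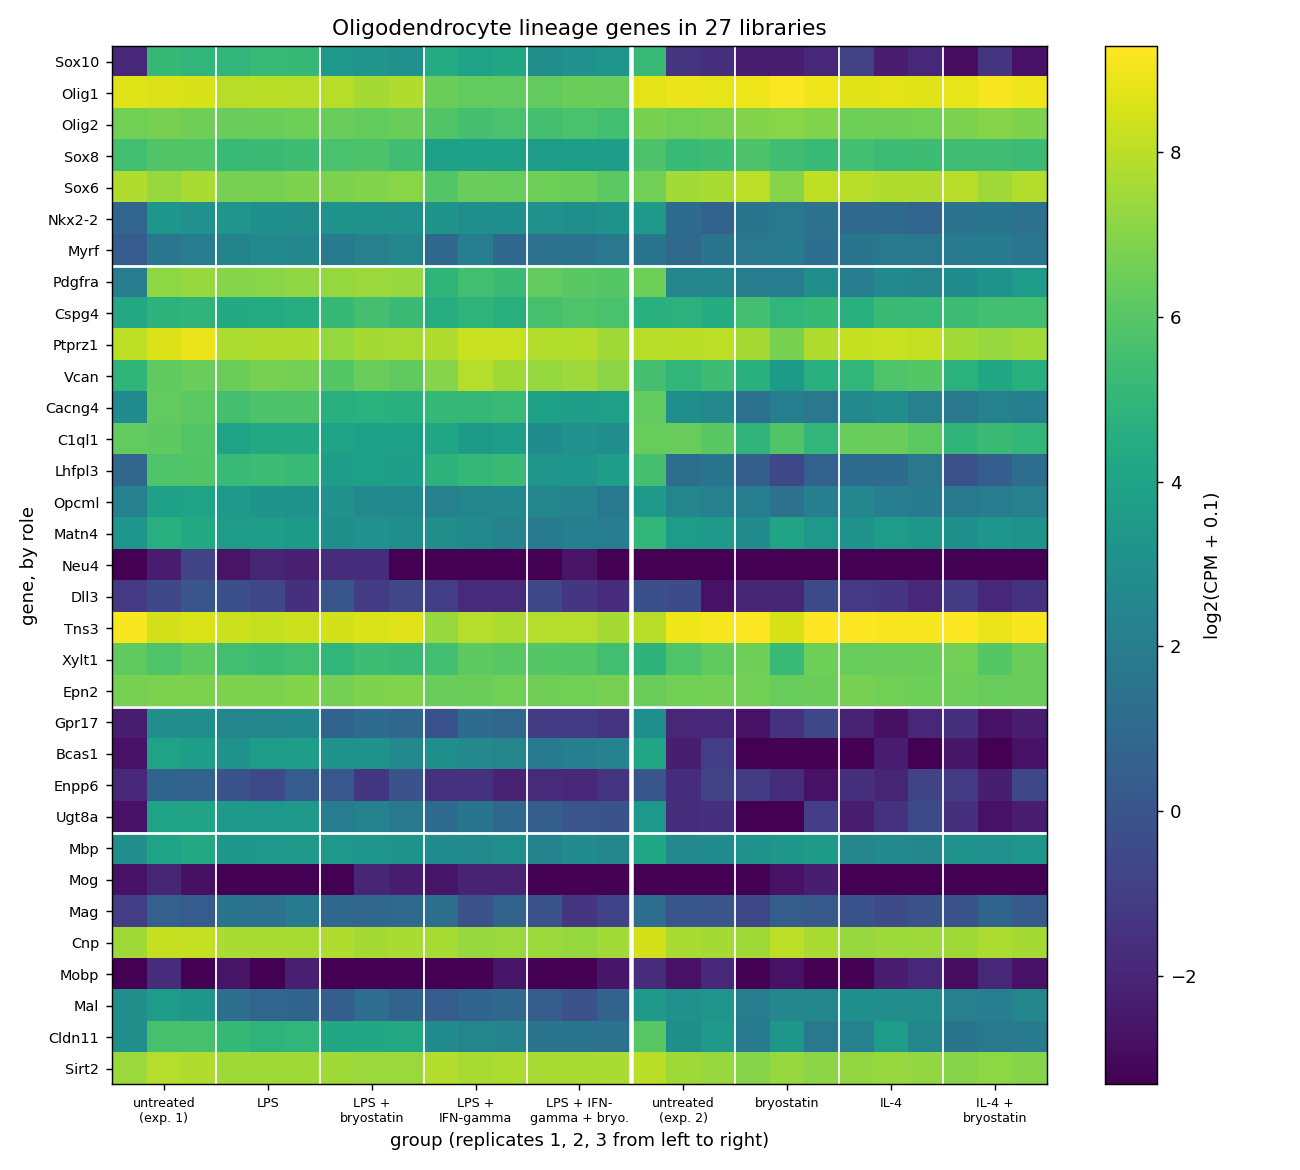
Level of each of the 33 genes (rows, by role: transcription factors, precursor genes, committed precursor genes, myelin genes) in each of the 27 libraries (columns, replicates 1 to 3 from left to right in each group), as log2(CPM + 0.1). The column of untreated replicate 1 in each experiment differs from its 2 neighbours for Sox10 (0.165 against 35.2 and 31.7 CPM in experiment 1), and Olig1 is bright in every column.

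Per kilobase of gene model, a scale that allows genes to be compared, Olig1 was the most abundant member in the LPS libraries at 115 CPM per kb. Cnp, an early myelin enzyme, followed at 56.1, Sirt2, a deacetylase found in myelin, at 36.0 and Olig2 at 35.0 CPM per kb, so Sirt2 and Olig2 were nearly level. Sox10 stood at 11.2, Pdgfra at 13.5 and Mbp, the main cytoplasmic myelin protein, at 1.27 CPM per kb. Mbp was thus low beside Olig1, Olig2 and Sox10, though above Myrf at 0.657 CPM per kb. Mog, a surface protein of mature myelin, never had more than 3 counts in a library, Mobp, another myelin protein, never more than 4, and Neu4, a sialidase of precursors, never more than 10.

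The 2 experiments held some members at different levels and others at like levels. Leaving out the libraries labelled replicate 1, Pdgfra read 142 and 162 CPM in untreated cultures of experiment 1 and 5.22 and 5.27 in those of experiment 2. Bcas1, a gene of freshly committed oligodendrocytes, read 15.1 and 13.4 against 0.109 and 0.388 CPM, and Ugt8a, which makes the myelin lipid galactosylceramide, 15.7 and 16.6 against 0.218 and 0.222 CPM. Olig2 was at 103 and 95.2 against 98.1 and 104 CPM, and Olig1 at 402 and 372 against 478 and 454 CPM. C1ql1 was at 70.8 and 61.3 against 82.4 and 67.9 CPM, and Mal at 12 and 10.1 against 8.16 and 9.37 CPM. Sox10, Bcas1 and Ugt8a were thus near the counting floor in experiment 2. Olig1, Olig2 and C1ql1 were as high there, and Mal nearly so. Which cells carried that RNA was not tested. Experiments were not tested against each other. The summed level of 6 ependymal markers split the same way (227, 646 and 672 CPM over the untreated libraries of experiment 1, and 222, 233 and 718 CPM over those of experiment 2, from lowest to highest), and its part in the result was not tested.

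Across the 27 libraries, the members whose log2 CPM followed Sox10 most closely were Bcas1 (Pearson r 0.974), Lhfpl3 (0.969), Cacng4 (0.958), Nkx2-2 (0.932), Pdgfra (0.919) and Ugt8a (0.918). Tns3 (r −0.797), Sox6 (−0.761), Xylt1 (−0.633), Olig1 (−0.616), Olig2 (−0.543), C1ql1 (−0.493) and Mal (−0.478) ran the other way, and Sox8 (−0.262) and Cspg4 (−0.246) did so weakly. Of all genes tested in experiment 1, the 10 nearest to Sox10 were Myt1 (0.977), Dpp10, Bcas1, Dcx, Phactr3, Jph3, Lhfpl3, Kcnj6, Ttr and Fhad1 (0.967). These are descriptions over 27 libraries that share their experiments, and most of the spread is the step between experiments.

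**Figure D2:**
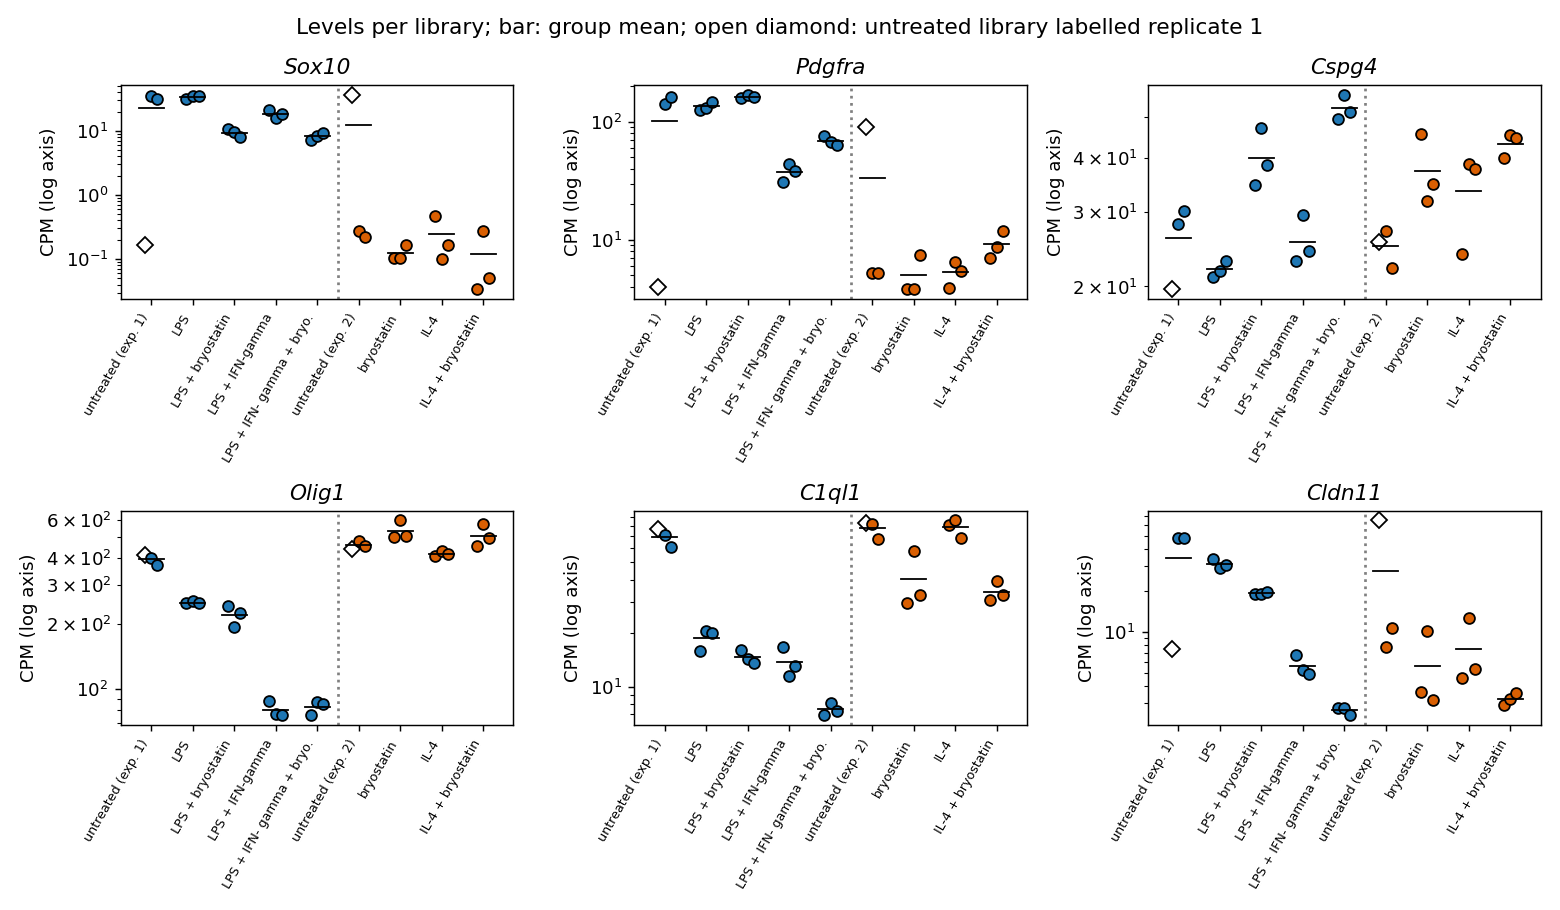
CPM per library (log axis) of 6 members in the 9 groups, with experiment 1 left and experiment 2 right of the dotted line. Bars are means of 3 libraries and open diamonds are the untreated libraries labelled replicate 1. Sox10 and Pdgfra are low in experiment 2 apart from its replicate 1 diamond, and low in experiment 1 in that experiment's diamond. Cspg4 is higher in the bryostatin groups than in the matching groups without it, in both experiments.

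LPS, a bacterial cell wall component that activates microglia and astrocytes, lowered a group of transcription factors and precursor genes. Olig1 read 415, 402 and 372 CPM untreated and 248, 253 and 249 with LPS. The groups did not overlap, and Olig1 fell by 0.65 ± 0.09 on the log2 scale (adjusted p = 2.8e-05 in edgeR's test). C1ql1, a secreted C1q-like protein made by precursors, read 77.1, 70.8 and 61.3 CPM untreated and 15.9, 20.5 and 20.0 with LPS. Mal, a raft protein of myelin, read 7.33, 12 and 10.1 against 2.33, 1.66 and 1.58 CPM. C1ql1 fell by 1.87 ± 0.14 (adjusted p = 1.7e-08) and Mal by 2.38 ± 0.27 (adjusted p = 2.5e-06) in edgeR's test. Both calls held under the 23 alternatives run, some of which are the same fit, as described under the processing below. The changes without the 2 untreated libraries were −0.60 ± 0.09 for Olig1, −1.78 ± 0.14 for C1ql1 and −2.54 ± 0.24 for Mal.

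As labelled, 10 of 30 members were called between LPS and untreated, 2 higher and 8 lower, where 38.4% of all genes tested were called. The lower ones included Sox6 (−0.84 ± 0.14) and Sox8 (−0.41 ± 0.10), SOX factors of the lineage and of other glia, and Ptprz1 (−0.79 ± 0.18), a receptor phosphatase. Mag, an adhesion protein of the innermost myelin wrap, was higher by 1.63 ± 0.41 (adjusted p = 0.0048 in edgeR's test), at 2.84, 2.59 and 3.49 against 0.386, 1.35 and 1.16 CPM. Myrf, the factor that switches on myelin genes, was higher by 1.09 ± 0.36 (adjusted p = 0.025), a call lost when LPS replicate 2 or 3 was left out or only the compared groups were fitted. Mag, without the 2 untreated libraries, was at 1.27 ± 0.36 and Myrf at 0.74 ± 0.28, and both were called. Tns3, an adhesion adaptor, and Xylt1, a proteoglycan enzyme, were the other lower calls beside Olig1, C1ql1 and Mal. The call for Tns3 (adjusted p = 0.039 in edgeR's test) was lost in 12 of 23 alternatives, among them the compared groups alone (adjusted p = 0.084) and leaving out any 1 of the 3 LPS libraries, and the change was −0.21 ± 0.13 (adjusted p = 0.18) without the untreated library labelled replicate 1.

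Without the 2 untreated libraries, 19 of 30 were called, 2 higher and 17 lower, against 42.8% of all genes. The members' median log2 fold change was then −0.48, beside 0 for all genes. Cldn11, a tight junction protein of myelin (−0.59 ± 0.11), Mbp (−0.69 ± 0.14), Matn4, a matrix protein of precursors (−0.80 ± 0.14), and Lhfpl3, a precursor membrane protein (−0.58 ± 0.12), were among those added. Cacng4, an AMPA receptor subunit partner, and Ugt8a turned from 0.08 and 0.06 as labelled to −0.43 ± 0.09 (adjusted p = 0.00082) and −0.52 ± 0.16 (adjusted p = 0.015). Sox10 itself was 0.06 ± 0.13 and Pdgfra −0.14 ± 0.12, and neither passed the test. The summed microglial markers were at 1440 to 1770 CPM untreated and at 775 to 840 with LPS, and astrocyte markers at 13000 to 16800 and 10400 to 11000 CPM. Mural markers were at 1280 to 1540 and 325 to 366 CPM, and fibroblast markers at 1820 to 3740 and 5510 to 6550 CPM. Their part in the result was not tested.

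IFN-gamma is the T cell cytokine. With LPS and IFN-gamma together most members called were lower than untreated. Olig1 read 88.1, 77.1 and 76.2 CPM and fell by 2.27 ± 0.10 against untreated (adjusted p = 6.2e-12 in edgeR's test). Sox8 read 13.7, 14.6 and 14.3 CPM, against 44.1, 57.6 and 58.9 untreated, and fell by 1.88 ± 0.11. Cldn11 read 6.80, 5.28 and 4.90 against 7.5, 48.6 and 48.4 CPM, where the low untreated library is the one labelled replicate 1. Cldn11 fell by 2.58 ± 0.48 as labelled and by 3.05 ± 0.12 without it. All 3 genes lay below every untreated library, Cldn11 by a narrow gap to the library labelled replicate 1.

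As labelled, 17 of 30 members were called, 1 higher and 16 lower, against 58.1% of all genes, with a median of −0.93 beside −0.01. Without the 2 libraries 24 were called, 1 higher and 23 lower. In that fit 60.9% of all genes were called and 29.9% were called lower, beside 23 of 30 members. The summed astrocyte markers were at 13000 to 16800 CPM untreated and at 7660 to 8190 with LPS and IFN-gamma, microglial markers at 1440 to 1770 and 508 to 567, and mural markers at 1280 to 1540 and 399 to 448 CPM. Their part in the result was not tested. The call in the other direction was Vcan, the proteoglycan versican, at 126, 237 and 183 CPM against 30.1, 74.0 and 86.0 untreated (1.56 ± 0.30 as labelled, adjusted p = 0.00061). Neu4 was at 0 counts in all 3 LPS and IFN-gamma libraries, too low to test with the filter.

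C1ql1 fell by 2.31 ± 0.14, Mal by 2.65 ± 0.28 and Sox6 by 1.34 ± 0.14 as labelled. Olig2, Tns3, Matn4, Mbp, Enpp6, Ugt8a and Ptprz1 were called lower as well, between −2.25 for Enpp6 and −0.44 for Ptprz1. The calls for Ptprz1 and Ugt8a were lost in 15 and 9 of 23 alternatives. Enpp6 had just 4, 4 and 2 counts with LPS and IFN-gamma. Opcml, a cell adhesion protein, read 4.43, 5.35 and 5.75 CPM with LPS and IFN-gamma and 4.52, 15 and 15.5 untreated, and fell by 1.14 ± 0.34 as labelled and by 1.51 ± 0.18 without the 2 libraries. Cnp fell by 0.48 ± 0.14 and 0.65 ± 0.09 in these fits. Epn2, an endocytic adaptor, fell by 0.23 ± 0.08 as labelled and by 0.35 ± 0.08 against LPS alone, and its level stayed between 81.9 and 122 CPM in all 27 libraries. Dll3, a Notch pathway ligand of precursors, was at 0.0554 to 0.931 CPM in the 27 libraries and was not called in any comparison as labelled.

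Set against LPS alone, adding IFN-gamma called 14 of 30 members as labelled, 2 higher and 12 lower, where 36% of all genes were called. Without the 2 untreated libraries 24 were called, 4 higher and 20 lower, against 42.8% of all genes called and 20.9% called lower. The lower calls covered each role. Of the transcription factors, Olig1 fell by 1.62 ± 0.09, Sox8 by 1.47 ± 0.09 and Olig2 by 0.74 ± 0.09, and these 3 were called in both fits.

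Pdgfra, the receptor through which PDGF drives precursor division, read 126, 132 and 147 CPM with LPS and 30.7, 44.2 and 38.6 with IFN-gamma added. The 2 groups are far apart, and the log2 fold change was −1.82 in both fits, with an adjusted p of 0.06 as labelled and of 2.2e-10 without the untreated libraries. Ugt8a went from 11.4, 10.5 and 11.3 to 2.05, 2.93 and 1.77 CPM and Gpr17, an orphan receptor of committed precursors, from 5.45, 5.33 and 5.74 to 0.793, 2.04 and 1.70 CPM. All 4 committed precursor genes were lower in the fit without the libraries, with a median of −1.9: Ugt8a by −2.28 ± 0.18, Enpp6, a choline phosphodiesterase, by −1.95 ± 0.52, Gpr17 by −1.85 ± 0.24 and Bcas1 by −0.84 ± 0.19. As labelled, Ugt8a and Enpp6 were called, and those calls were lost in 16 and 11 of the 23 alternatives. Enpp6 had 15, 12 and 21 counts with LPS and 4, 4 and 2 with IFN-gamma added.

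Some members did not follow. Nkx2-2, a factor of the step towards myelination, read 9.31, 8.07 and 7.49 CPM with LPS and 9.25, 7.70 and 7.91 with IFN-gamma (0.01 ± 0.13 without the untreated libraries, adjusted p = 0.95). Lhfpl3 was at −0.15 ± 0.11 and Cspg4 at 0.23 ± 0.12, and neither passed. Vcan (0.91 ± 0.20), Xylt1 (0.47 ± 0.17), Ptprz1 (0.36 ± 0.13) and Sirt2 (0.25 ± 0.06) were higher in that fit. Vcan and Xylt1 were also called as labelled, but lost in 6 and 13 of 23 alternatives.

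With bryostatin present throughout, IFN-gamma changed 13 of 30 members as labelled (3 higher, 10 lower, against 36.9% of all genes) and 24 without the libraries (4 higher, 20 lower, against 43.8%). Olig1 changed by −1.41 ± 0.09, Sox8 by −1.97 ± 0.09 and Cldn11 by −2.84 ± 0.13 in the latter fit. Sox10 showed −0.88 ± 0.12 for IFN-gamma without bryostatin and −0.17 ± 0.14 with it, and only the former was called. This difference between the effects is the same quantity as that between the effects of bryostatin, tested below.

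**Figure D3:**
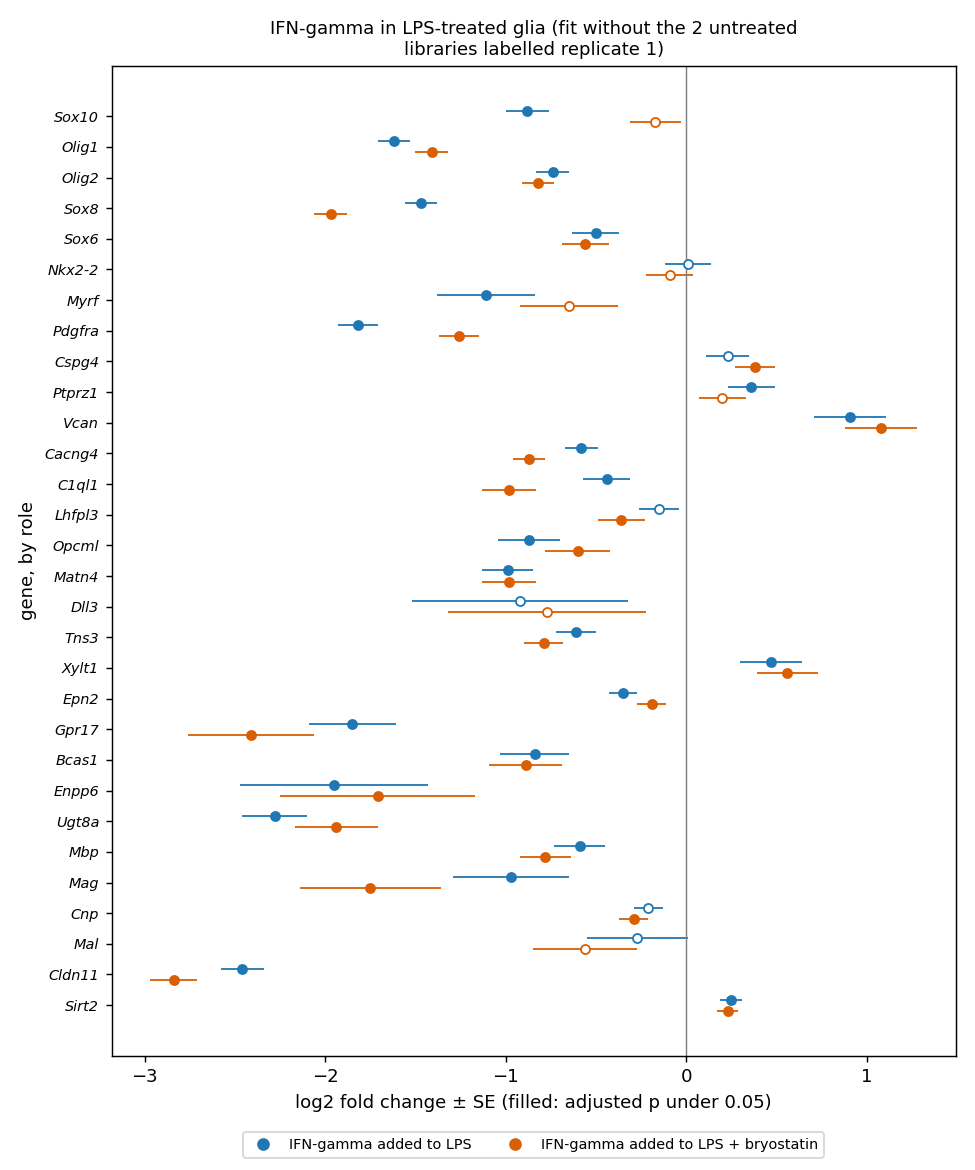
Log2 fold change with its standard error for IFN-gamma added to LPS (blue) and to LPS with bryostatin (orange), 30 tested members by role, without the untreated libraries labelled replicate 1. Filled points have an adjusted p under 0.05, most points lie left of 0, and Vcan lies right of it at 0.91 and 1.08.

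Bryostatin added to LPS raised Cspg4 as labelled and in all 23 alternatives run, and lowered Sox10, Lhfpl3, Cacng4 and 4 other members in the fit without the untreated libraries labelled replicate 1. Sox10 read 31.6, 35.5 and 35.1 CPM with LPS and 10.5, 9.45 and 8.14 with bryostatin added. Each treated library was below each LPS library, by 1.85 on the log2 scale. The call depends on the fit: the adjusted p was 0.18 as labelled, 1.2e-08 without the untreated libraries labelled replicate 1, and 2.8e-11 when the LPS and LPS with bryostatin groups were fitted alone.

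Cspg4, which encodes the NG2 proteoglycan of precursors and pericytes, read 21.1, 21.7 and 23 CPM with LPS and 34.6, 47.1 and 38.7 with bryostatin. It rose by 0.89 ± 0.14 (adjusted p = 0.0012 in edgeR's test as labelled), with an adjusted p of at most 0.011 over 23 alternatives. Added to LPS and IFN-gamma, bryostatin moved it from 22.9, 29.4 and 24.2 to 49.4, 56.5 and 51.5 CPM, a rise of 1.04 ± 0.14 (adjusted p = 0.00057, at most 0.0061 over the alternatives). The groups did not overlap in either setting. The summed mural markers, whose cells also carry NG2, were at 325 to 366 CPM with LPS and 286 to 332 with bryostatin, and at 399 to 448 and 314 to 338 CPM under IFN-gamma. Acta2, a contractile protein, made up most of that sum (221 ± 21.1 CPM with LPS, SD, n = 3), and the other mural markers are not reported singly here. The part of pericytes in the result was not tested.

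As labelled, Cspg4 was the 1 member of 30 called for bryostatin added to LPS, where 6.89% of all genes were called. Without the untreated libraries 9 were called, 2 higher and 7 lower, against 13.1% of all genes called and 7.06% called lower. The 7 lower ones were Sox10, Cacng4, Lhfpl3, Matn4, Gpr17, Ugt8a and Cldn11. When just the compared groups were fitted, 18 were called, 5 higher and 13 lower, against 22% of all genes. The median of the members was −0.22, beside 0 for all genes.

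Lhfpl3 read 35.5, 40.4 and 36.8 CPM with LPS and 13.3, 14.1 and 13.4 with bryostatin. Cacng4 went from 48.1, 55.3 and 54.2 to 23.8, 26.2 and 26.0 CPM. Gpr17 went from 5.45, 5.33 and 5.74 to 1.59, 2.06 and 1.81 CPM. None of these groups overlapped, and without the untreated libraries the changes were −1.45 ± 0.12 for Lhfpl3, −1.04 ± 0.09 for Cacng4 and −1.57 ± 0.22 for Gpr17, with adjusted p of 1.2e-07, 1.3e-07 and 7.1e-05. As labelled their adjusted p were 0.26, 0.30 and 0.25. Ugt8a went from 11.4, 10.5 and 11.3 to 3.94, 4.49 and 3.24 CPM (−1.48 ± 0.17) and Cldn11 from 34.3, 29.3 and 31.0 to 19.0, 18.9 and 19.6 CPM (−0.70 ± 0.10).

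The genes that share the lineage with Sox10 did not all move with it. Olig1 (−0.17 ± 0.08), Olig2 (−0.06 ± 0.08), Nkx2-2 (0.08 ± 0.13) and Mbp (−0.11 ± 0.13) did not pass the test, and Sox8 was higher by 0.33 ± 0.08 (adjusted p = 0.012) without the untreated libraries. Pdgfra read 126, 132 and 147 CPM with LPS and 158, 170 and 162 with bryostatin, so its libraries also lay apart, in the upward direction (0.29 ± 0.10, adjusted p = 0.071 in that fit, and 0.0016 with the compared groups alone). The ratio of Pdgfra to Sox10 counts, which no library scaling can alter, was 3.98, 3.72 and 4.20 with LPS and 15.1, 18 and 20 with bryostatin. It was 1.44, 2.79 and 2.14 with IFN-gamma and 10.4, 8.05 and 6.74 with IFN-gamma and bryostatin.

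Under LPS with IFN-gamma, bryostatin raised Cspg4 and lowered C1ql1 as labelled, and further calls came without the untreated libraries. Sox10 went from 21.3, 15.9 and 18 to 7.30, 8.36 and 9.38 CPM and Lhfpl3 from 28.2, 34.0 and 38.7 to 9.46, 9.66 and 12.9 CPM. Pdgfra, which IFN-gamma had brought to 30.7, 44.2 and 38.6 CPM, stood at 76.0, 67.3 and 63.2 CPM with bryostatin, still below the 126 to 147 CPM of LPS alone. C1ql1 went from 16.8, 11.5 and 13.1 to 6.92, 8.12 and 7.26 CPM and fell by 0.89 ± 0.16 as labelled (adjusted p = 0.0043, at most 0.026 over 23 alternatives). As labelled, Cspg4 and C1ql1 were the 2 of 30 members called, against 3.38% of all genes. Without the untreated libraries 11 were called, 2 higher and 9 lower, against 8.41% of all genes called and 4.45% called lower, and 8 were called with the compared groups alone, against 3.77%.

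In the fit without the untreated libraries, Sox10 changed by −1.14 ± 0.13 (adjusted p = 1.8e-05), Lhfpl3 by −1.66 ± 0.13, Cacng4 by −1.33 ± 0.09, Cldn11 by −1.07 ± 0.15 and Pdgfra by 0.86 ± 0.11 (adjusted p = 5.5e-05). As labelled, Sox10 had an adjusted p of 0.55 and Pdgfra of 0.64. Ugt8a (−1.14 ± 0.26), Gpr17 (−2.14 ± 0.37), Matn4 (−0.63 ± 0.16) and Mag (−1.49 ± 0.41) were the other lower calls beside C1ql1. With bryostatin, Gpr17 had just 6, 6 and 4 counts and Mag 13, 5 and 7, so these 2 folds rest on few reads. Bcas1 went from 7.60, 6.05 and 5.16 to 3.62, 4.21 and 4.79 CPM without overlap and did not pass (−0.58 ± 0.21, adjusted p = 0.10).

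Whether bryostatin acted differently with and without IFN-gamma was tested as the difference of the 2 effects. Of 30 members 0 were called as labelled, against 0.118% of all genes, with 2 at an unadjusted p under 0.05 in edgeR and 2 in DESeq2, which also called 0. Without the untreated libraries 0 were called, against 0.694%, and 5 had an unadjusted p under 0.05. The members nearest to a call there were Sox8 (−0.50 ± 0.13, adjusted p = 0.088) and Sox10 (0.71 ± 0.18, adjusted p = 0.09). Effects in both settings are read against different base groups, LPS and LPS with IFN-gamma, which share no library.

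**Figure D4:**
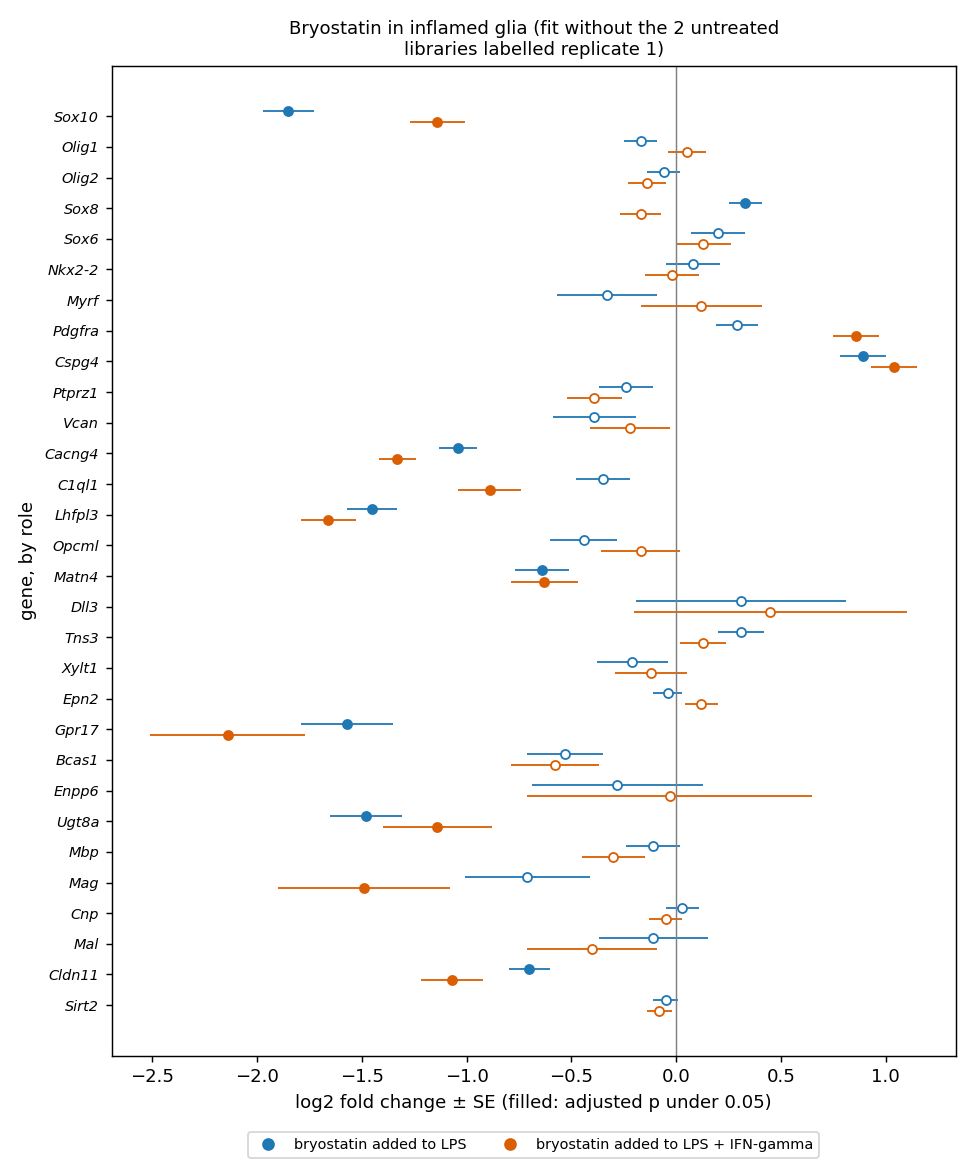
Log2 fold change with its standard error for bryostatin added to LPS (blue) and to LPS with IFN-gamma (orange), 30 tested members by role, without the untreated libraries labelled replicate 1. Filled points have an adjusted p under 0.05. Sox10, Cacng4, Lhfpl3, Gpr17, Ugt8a and Cldn11 lie left of 0 in both, and Cspg4 lies right of it at 0.89 and 1.04.

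Markers of other cells moved beside these results. The summed level of 11 astrocyte markers was 10400 to 11000 CPM with LPS and 7620 to 7940 with bryostatin added, and 7660 to 8190 and 5320 to 5340 CPM under IFN-gamma. The 11 microglial markers summed to 775 to 840 and 560 to 617 CPM with LPS, and to 508 to 567 and 393 to 491 with IFN-gamma. Neuronal markers summed to 162 to 174 and 219 to 239 CPM with LPS, and fibroblast markers to 5510 to 6550 and 4250 to 5870 CPM. No marker of the astrocyte or microglial list was at 0 counts in any library. Astrocyte and microglial sums were lower with bryostatin and neuronal sums higher, and their part in the result was not tested.

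In experiment 2, 25 members were tested and 8 lay under the filter on low counts. Apart from the untreated library labelled replicate 1, Sox10 lay between 0.0338 and 0.469 CPM in the other 11 libraries, and Bcas1 was at 0 counts in all 3 bryostatin libraries. No fold is given for such genes. Bryostatin alone gave 2 calls among 25 members as labelled, both lower, against 3.62% of all genes: C1ql1 and Mal. C1ql1 read 83.2, 82.4 and 67.9 CPM untreated and 29.4, 58.1 and 32.9 with bryostatin (−0.97 ± 0.22, adjusted p = 0.039 in edgeR's test), and was not called without the untreated libraries labelled replicate 1 (−0.92 ± 0.24, adjusted p = 0.064). Mal read 10.8, 8.16 and 9.37 against 3.77, 5.66 and 5.34 CPM and was lower in both fits (−0.95 ± 0.19 and −0.85 ± 0.19, adjusted p = 0.022 and 0.042). The call for C1ql1 was lost in 11 of 20 alternatives and that for Mal in 3, among them leaving out bryostatin replicate 1 or 3. Without the 2 untreated libraries Mal alone was called, 1 of 25 against 2.7% of all genes. Bryostatin replicate 2 stood apart from its group, with Sox6 at 264, 130 and 270 CPM and Tns3 at 614, 366 and 622 CPM. Dropping that library and the one with the same number from the IL-4 with bryostatin group as well gave 10 of 25 members called, 5 higher and 5 lower, against 14.5% of all genes, and all 27 libraries in 1 fit gave 11 of 30, against 9.3%.

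Pdgfra moved far less in the fit without the untreated libraries. It read 90.5, 5.22 and 5.27 CPM untreated and 3.82, 3.83 and 7.38 with bryostatin, a log2 fold change of −2.78 ± 0.94 as labelled and of −0.08 ± 0.34 without replicate 1. Lhfpl3 went likewise from −4.00 ± 1.06 to −1.23 ± 0.46 and Nkx2-2 from −0.78 ± 0.58 to 0.65 ± 0.22. None of these passed the test in either fit. Cspg4 read 25.4, 27 and 22.1 CPM untreated and 45.7, 31.7 and 34.9 with bryostatin. With IL-4 it read 23.9, 38.8 and 37.8 CPM, and 40, 45.4 and 44.6 with bryostatin added. Its libraries lay apart in both pairs, upward with bryostatin, and it was called in neither fit.

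IL-4, the type 2 cytokine, gave 0 calls among 25 members against untreated cultures, where 0.583% of all genes were called, with 8 members at an unadjusted p under 0.05 in edgeR and 0 called by DESeq2. Without the untreated libraries it again gave 0, against 0.561% of all genes, with 0 at an unadjusted p under 0.05. Olig1 read 410, 431 and 416 CPM with IL-4 and 440, 478 and 454 untreated, and Olig2 92.0, 93.4 and 97.4 against 109, 98.1 and 104.

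Bryostatin added to IL-4 lowered C1ql1 from 81.3, 86.0 and 68.8 to 30.7, 39.0 and 32.9 CPM (−1.19 ± 0.22, adjusted p = 0.014 in edgeR's test), the 1 member of 25 called as labelled, against 4.13% of all genes. The groups lay well apart. Leaving out IL-4 replicate 1 or 2, or IL-4 with bryostatin replicate 1 or 3, lost the call, with an adjusted p of at most 0.075. Without the untreated library labelled replicate 1, 5 were called against 8.54% of all genes: C1ql1 (−1.20 ± 0.22), Vcan (−1.11 ± 0.31) and Mal (−0.70 ± 0.17) lower, Olig2 (0.32 ± 0.08) and Mbp (0.64 ± 0.15) higher. With IL-4 and IL-4 with bryostatin fitted alone, 8 were called against 17.9%. Mbp read 5.25, 6.25 and 5.67 CPM with IL-4 and 8.66, 8.22 and 9.88 with bryostatin, and Olig2 92.0, 93.4 and 97.4 against 113, 126 and 115 CPM. Neither pair of groups overlapped, though the shifts are small for Olig2. Sox10 was at 0.1 to 0.469 CPM with IL-4 and at 0.0338 to 0.272 CPM with bryostatin added. Which cells carried the RNA of the called members was not tested.

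Given bryostatin, IL-4 changed 0 of 25 members, against 0.91% of all genes as labelled and 1.25% without the untreated libraries, with 0 and 1 at an unadjusted p under 0.05 in edgeR and 0 called by DESeq2. The difference between the effects of bryostatin with and without IL-4 was called for 0 of 25 members and for 0% of all genes in both fits, with 3 members at an unadjusted p under 0.05 as labelled and 0 without, and DESeq2 also called 0. Astrocyte markers summed to 12100 to 13000 CPM with IL-4 and 8560 to 9770 with bryostatin added, and to 13200 to 17500 untreated and 8700 to 10900 with bryostatin alone, and their part in the result was not tested.

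**Figure D5:**
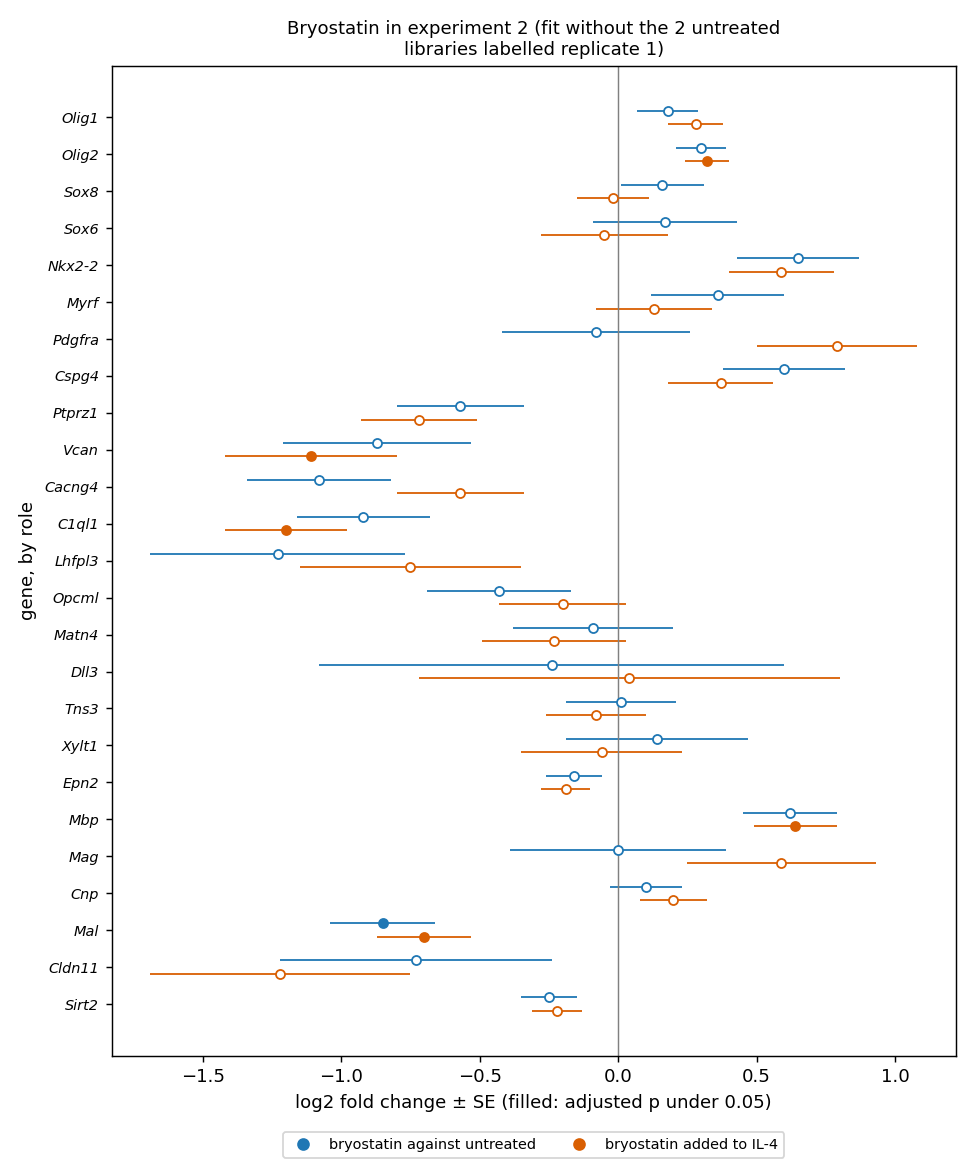
Log2 fold change with its standard error for bryostatin against untreated (blue) and added to IL-4 (orange) in experiment 2, 25 tested members by role, without the untreated libraries labelled replicate 1. Filled points have an adjusted p under 0.05. Mal is filled for both (−0.85 and −0.70), and C1ql1, Vcan, Olig2 and Mbp for IL-4 only.

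Further genes of the pathway were read from 3 lists. Of 30 other oligodendrocyte and myelin genes, 29 were in the annotation and 20 were tested in experiment 1. As labelled, LPS gave 3 higher and 7 lower (38.4% of all genes were called), LPS with IFN-gamma 4 higher and 9 lower against untreated (58.1%), bryostatin added to LPS 0 higher and 2 lower (6.89%), and bryostatin added to LPS and IFN-gamma 0 higher and 1 lower (3.38%). Without the 2 untreated libraries these were 3 and 8 (42.8%), 4 and 11 (60.9%), 0 and 5 (13.1%), and 0 and 3 (8.41%). Apod, a lipocalin, rose with LPS (2.60 ± 0.29, and 2.26 ± 0.14 without the 2 libraries) and fell when bryostatin was added (−1.07 ± 0.27).

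Among 17 other precursor genes, all tested, LPS gave 2 higher and 5 lower, bryostatin added to LPS 2 higher and 5 lower, and bryostatin added to LPS and IFN-gamma 2 higher and 3 lower as labelled, where 38.4%, 6.89% and 3.38% of all genes were called. These were, without the 2 untreated libraries, 2 and 9, 2 and 6, and 2 and 6, against 42.8%, 13.1% and 8.41%. Megf11 rose with bryostatin in both (1.24 ± 0.17 and 1.23 ± 0.17), from a mean of 8.70 ± 1.10 to 20.4 ± 0.88 CPM under LPS (SD, n = 3). Cspg5, a brain proteoglycan, fell with bryostatin added to LPS (−0.99 ± 0.11).

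Of 22 signals that act on the lineage, 21 were tested in experiment 1, and LPS gave 10 higher and 6 lower, bryostatin added to LPS 3 and 3, and bryostatin added to LPS and IFN-gamma 3 and 2, where 38.4%, 6.89% and 3.38% of all genes were called. The numbers without the 2 untreated libraries were 10 and 5, 4 and 4, and 5 and 3, against 42.8%, 13.1% and 8.41%. Pdgfa, the ligand of Pdgfra, rose with bryostatin under LPS (0.88 ± 0.12), from 54.0 ± 2.14 to 98.2 ± 10.2 CPM (SD, n = 3), as did Lif, a cytokine of the IL-6 family (0.98 ± 0.20). Igf1, a growth factor for oligodendrocytes, rose with IL-4 against untreated (1.45 ± 0.21, and 1.24 ± 0.18 without the 2 libraries) and was the 1 gene of this list called there. Id4, an inhibitor of bHLH factors, fell with bryostatin alone (−1.02 ± 0.17, and −0.83 ± 0.13 without the 2 libraries) and added to IL-4 (−1.09 ± 0.17).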

How the data were processed

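RNA was measured in 27 unstranded poly(A) libraries in 9 groups of 3, taken from the labels. The submitters' processing notes name fastp, STAR, featureCounts and the mm10 build; versions are not given in the sources used here. Without strand, reads of overlapping genes cannot be told apart. The deposited table of whole-number counts for each gene is the input of every test. The authors' FPKM table served only as an alternative level scale.

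The test was edgeR's quasi-likelihood F test (version 4.0.16 under R 4.3.3, robust fit, TMM factors, low counts removed by filterByExpr) across all genes, each experiment apart with all its groups, Benjamini-Hochberg adjustment and a threshold of 0.05. DESeq2 1.42.0, other scaling, no filter, other sets of libraries and a replicate block were alternatives. Apart from the fit of all 27 libraries, experiments were fitted apart. Leaving out both untreated libraries labelled replicate 1 is thus the same fit as leaving out the experiment's own one. In experiment 1, also leaving out replicate 2 libraries of experiment 2 repeats that fit. Tallies over 23 alternatives in experiment 1 and 20 in experiment 2 count it more than 1 time. The code was tested on simulated data. All 33 members are named. From the other lists, at most the 3 called genes with the largest change per list and comparison were eligible, and some of these are not reported here. Members, lists and motifs were chosen with earlier results of these data known. Numbers were taken to pair libraries where the deviations of all 3 pairs correlated above 0.1, which held for IL-4 with bryostatin against bryostatin (r 0.522, 0.636 and 0.235) and for no other comparison. Even there, not every library correlated best with its own number, so the pairing is uncertain. The block left the count of called members for that comparison at 0. No pair of libraries held identical values.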

Additional observations from a re-analysis of the deposited data

How the results depend on the processing

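Without both untreated libraries labelled replicate 1, the called members numbered 19 for LPS against untreated (10 as labelled), 24 for IFN-gamma added to LPS (14), 24 for IFN-gamma added to LPS and bryostatin (13), 9 for bryostatin added to LPS (1), 11 for bryostatin added to LPS and IFN-gamma (2), 1 for bryostatin alone (2) and 5 for bryostatin added to IL-4 (1). Leaving out bryostatin replicate 2 and IL-4 with bryostatin replicate 2 as well gave 10 for bryostatin alone and 7 for bryostatin added to IL-4. Both libraries are of experiment 2, so the fit of experiment 1 stayed the same and its counts could not change. Fitting only the compared groups gave 25 for IFN-gamma added to LPS, 22 for IFN-gamma added to LPS and bryostatin, 18, 8, 0 and 8 for bryostatin added to LPS, to LPS and IFN-gamma, to untreated and to IL-4. All 27 libraries in 1 fit gave 8 for IFN-gamma added to LPS, 11 for bryostatin alone and 4 for bryostatin added to IL-4. DESeq2 gave 4 and 5 for the last 2, and no filter on low counts gave 3 for bryostatin added to LPS and IFN-gamma. With fewer samples or groups the spread is estimated from other libraries, and beyond that the cause was not tested. Cacng4 and Ugt8a turned from 0.08 and 0.06 to −0.43 and −0.52 for LPS against untreated without the untreated library labelled replicate 1, and leaving out any 1 library gave −0.43 to 0.5 and −0.52 to 0.51.

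Leaving out 1 library at a time gave 8 to 19 called members for LPS against untreated, 14 to 24 for LPS and IFN-gamma against untreated, 7 to 24 for IFN-gamma added to LPS, 1 to 9 and 2 to 11 for bryostatin added to LPS and to LPS and IFN-gamma, 10 to 24 for IFN-gamma added to LPS and bryostatin, 0 to 5 for bryostatin alone and 0 to 5 for bryostatin added to IL-4. The highest counts in experiment 1 came without the untreated library labelled replicate 1. IFN-gamma added to LPS fell to 9 and 7 without LPS replicate 2 and 3, and to 9 and 8 without LPS and IFN-gamma replicate 2 and 3. Bryostatin added to LPS gave 2 without LPS and bryostatin replicate 3. Bryostatin alone gave 0 without its replicate 1 or 3, 1 without any 1 of the 3 IL-4 libraries, of IL-4 with bryostatin replicates 1 and 3, or of untreated replicate 1, and 5 without untreated replicate 3. Bryostatin added to IL-4 gave 0 without IL-4 replicate 1 or 2 or IL-4 with bryostatin replicate 1 or 3, and 5 without bryostatin replicate 2 or untreated replicate 1.

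The replicate block, which other comparisons' numbers do not warrant as a pairing, gave 10, 16, 12, 1, 2 and 14 called members in experiment 1 and 2, 0, 1 and 0 in experiment 2. Each count was within 1.5 times that without the block. Each library correlated best with its own number for LPS against untreated and for IL-4 with bryostatin against IL-4. Counts of 0 stayed 0 in every setting for IL-4 against untreated, IL-4 added to bryostatin and both differences of effects. In 216 of 7320 values the sign changed where neither fit made a call. The median log2 ratio of the members for bryostatin added to LPS was −0.24 on TMM CPM and −0.23 on raw CPM and on deposited FPKM. Members under the filter, 3 in experiment 1 and 8 in experiment 2, are limited by depth.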
